A study of Mus musculus with 48 samples.

Results

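The genes described here encode subunits of the voltage-gated sodium channels, the voltage-gated calcium channels and the hyperpolarization-activated (HCN) pacemaker channels. Members were all genes whose symbol began with Cacn, or with Scn or Hcn and a digit, and that had at least 10 reads in at least 3 libraries of a deposited table. Of 31920 genes listed, 44 had such a symbol and 28 were kept, 27 of them in the 8-week table, where Cacna1e missed the minimum. The other 16 were Cacna1b, Cacna1f, Cacna1i, Cacna2d4, Cacng1 to Cacng6, Cacng8, Hcn3, Scn1a, Scn8a, Scn9a and Scn11a, and none of them had more than 17 reads in any library.

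The libraries came from wild type FVB mice and from FVB mice with PLNR9C, a change in phospholamban, the brake on the calcium pump of the sarcoplasmic reticulum, that leads to genetic dilated cardiomyopathy. Mice of both genotypes were given vehicle or 50 mg/kg of JQ1, an inhibitor of the BET bromodomain proteins that read acetylated histones. The labels place the 8-week left ventricles before cardiomyopathy and the 20-week ones in it, and the pooled cells, either cardiomyocytes or non-myocytes, were from 16 weeks. Each of the 16 groups held 3 libraries, which the series' design text calls individual biological replicates. The labels do not say which promoter drives PLNR9C, how long JQ1 was given or how many animals made a pool.

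Sodium channels open at the start of the cardiac action potential, and L-type calcium channels then admit the calcium that triggers contraction. A pore-forming alpha subunit carries the current in each case, and auxiliary beta and alpha2delta subunits set how many channels reach the membrane and how they gate. HCN channels carry the depolarizing pacemaker current of the sinoatrial node and, with T-type calcium channels, are known to be more abundant in the fetal than in the adult ventricle.

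Reads in genes numbered 16984138 to 27086694 per library at 8 weeks, 18415351 to 26730918 at 20 weeks, 10249780 to 13146653 in the cardiomyocyte pools and 10041094 to 11815003 in the non-myocyte pools. Hexim1, whose RNA is a marker of BET inhibition, had every JQ1 library apart from every vehicle library of the same tissue or pool. The summed level of 10 cardiomyocyte markers was 77256 to 88882 CPM (counts scaled to a common library total) in wild type vehicle ventricles at 20 weeks and 44564 to 50575 CPM in PLNR9C vehicle ventricles, while 10 fibroblast markers summed to 2423 to 2547 and 6668 to 8141 CPM. In whole tissue, fewer cells of a type and less RNA per cell cannot be told apart. In the cardiomyocyte pools the fibroblast sum was 474 to 618 CPM with wild type vehicle, 1668 to 2360 with PLNR9C vehicle and 2088 to 6555 with PLNR9C JQ1, where replicate 2 was highest. In the non-myocyte pools the cardiomyocyte sum was 2846 to 4426 CPM with wild type vehicle, 7274 to 9241 with wild type JQ1 and 1895 to 2522 with PLNR9C vehicle. The part of these shares in the results below was not tested unless a value is given beside the result. CPM values are scaled by TMM within a sample type, log2 fold changes carry their standard error, n = 3 libraries per group, and adjusted p-values are from edgeR's quasi-likelihood test with Benjamini-Hochberg adjustment over all genes tested.

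In wild type mice the channel genes divided between the cell fractions. Per gene length, Cacna1c, the L-type pore Cav1.2 (chromosome 6, 118592296 to 119196409, minus strand on GRCm38), stood in wild type vehicle ventricle at 20 weeks at 60.5 ± 1.63 RPKM (SD, n = 3; reads per kilobase and library size) and the sodium beta subunit Scn4b (chromosome 9, 45139042 to 45154061, plus strand) at 37.04 ± 5.15 RPKM. Hcn2 stood at 19.5 ± 0.805, the calcium beta subunit Cacnb2 at 15.04 ± 2.67, Scn4a at 12.7 ± 2.44 and Cacna2d1 at 11.4 ± 0.828 RPKM. The T-type channel Cacna1g followed with 4.54 ± 0.558 RPKM.

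In wild type vehicle cardiomyocytes Cacna1c stood at 52.9 ± 4.18, Scn4b at 34.4 ± 2.38, Hcn2 at 18.8 ± 0.665, Cacnb2 at 10.9 ± 1.95, Scn4a at 10.4 ± 1.52 and Cacna2d1 at 9.6 ± 0.357 RPKM. Non-myocytes had another order. There Scn7a, the sodium-sensing channel Nax, led with 21.1 ± 2.45 RPKM, and below it stood Cacng7 with 9.16 ± 0.466 and Cacnb3 with 8.49 ± 0.637 RPKM. The place of Cacng7 above Cacnb3 depends on the length used. Its deposited RPKM implies 939 bases, while the GENCODE annotation lists 2441 exonic bases. Over all non-myocyte libraries Cacng7 had 53 to 98 reads and Cacnb3 246 to 390. All 28 members passed the test between the pools, 16 of them higher in cardiomyocytes and 12 higher in non-myocytes, where 79.5% of all genes passed, 37.3% and 42.2% in these directions. The median log2 fold change of cardiomyocytes over non-myocytes was 1.58 over the members and -0.13 over all genes.

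Among those higher in cardiomyocytes were Cacna1s, better known as the skeletal muscle L-type pore (6.10 ± 0.36), Scn4a, the skeletal muscle sodium channel Nav1.4 (5.54 ± 0.33), Hcn2 (5.14 ± 0.21), Hcn4 (4.72 ± 0.30), Cacna1c (4.69 ± 0.24), Cacnb2 (4.31 ± 0.31) and Scn4b (4.20 ± 0.33). Higher in non-myocytes were Scn7a (-3.67 ± 0.35), Cacng7 (-3.51 ± 0.37), Cacnb3 (-3.37 ± 0.24), Scn2a1 (-3.21 ± 0.46), Cacna1a (-2.92 ± 0.48), Scn2b (-2.78 ± 0.40), Cacna1d (-2.64 ± 0.35), Cacna1e (-2.48 ± 0.63), Cacna1h (-2.30 ± 0.26), Scn3a (-2.09 ± 0.30), Scn3b (-2.05 ± 0.34) and Cacnb4 (-1.61 ± 0.26). Scaling by total reads in place of TMM moved the median of all genes from -0.13 to -1.09, and 13 members then passed as higher in cardiomyocytes and 12 as lower. Of all genes called with that scaling, 23.4% were higher in cardiomyocytes. Under that scaling Cacnb1 turned from 0.88 ± 0.19 to -0.08, so no direction can be given for this gene, whose RPKM values were close (2.72 ± 0.1902 and 2.88 ± 0.2704).

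**Figure D1:**
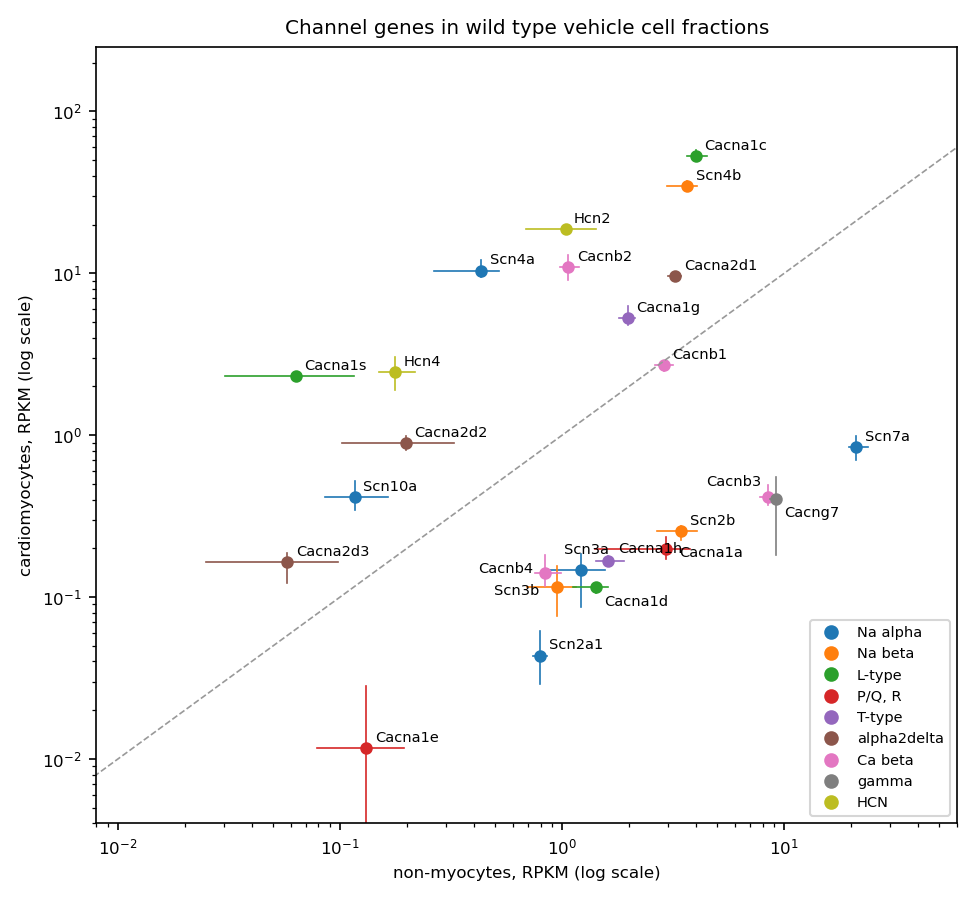
Mean RPKM of 25 members in wild type vehicle cardiomyocytes (y axis) against wild type vehicle non-myocytes (x axis), both on log scales, with bars from the lowest to the highest of 3 libraries and a dashed line of equal level. Cacna1c, Cacnb2 and Hcn2 lie far above the line, Scn7a, Cacnb3 and Cacng7 far below it, and Cacnb1 near it. The lower bar of Cacna1e runs off the axis because 1 library had no reads.

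Scn4a and Cacna1s are named for skeletal muscle. Markers of skeletal muscle, 8 genes, summed to 0.756 to 1.33 CPM in wild type vehicle cardiomyocytes, with 2 to 5 of the 8 at 0 reads, and Scn4a read 81.9, 62.8 and 66.5 CPM in the same 3 libraries. Neuron markers summed to 4.61 to 5.11 CPM over 10 genes in wild type vehicle ventricle at 20 weeks and to 5.19 to 6.43 CPM in PLNR9C vehicle ventricle. In vehicle cardiomyocyte pools they summed to 5.2 to 6.38 CPM in wild type and 9.07 to 13.99 CPM in PLNR9C. The part of these markers in the channel values was not tested. An antisense gene overlaps 20% of the exonic bases of Cacna1s and an opposite-strand transcript 16% of those of Cacnb4, and whether counting used strand is not given, so reads of these pairs cannot be told apart.

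In PLNR9C vehicle ventricle at 20 weeks and in the cardiomyocyte pools, Scn4b, Scn4a, Cacna1g and Hcn4 fell and Scn3b, Cacnb1 and Cacnb3 rose. Cacnb2 fell in ventricle at 20 weeks, and its call in cardiomyocytes was lost under several settings given with its values. At 20 weeks, with vehicle, 19 of 28 members differed between PLNR9C and wild type ventricle, 10 higher and 9 lower, where 44.7% of all genes passed (23.3% higher and 21.4% lower), and the members' median was -0.16 beside 0.01 for all genes. At 8 weeks 7 of 27 passed, 4 higher and 3 lower, where 14.4% of all genes passed (7.86% and 6.49%), with medians of -0.09 and 0.01. In cardiomyocytes 10 of 26 passed, 5 in each direction, where 26.1% passed (14.3% and 11.8%), with medians of 0.00 for both. In non-myocytes 5 of 24 passed, 2 higher and 3 lower, where 18.6% passed (10.3% and 8.32%), with medians of -0.06 and -0.01. With total-read scaling, which raised the median of all genes by 0.12 at 8 weeks, 0.26 at 20 weeks and 0.14 in cardiomyocytes, 4 and 1 members passed as higher and lower at 8 weeks, 11 and 9 at 20 weeks and 5 and 4 in cardiomyocytes. Of all genes called with that scaling, 86.1%, 79.8% and 74.9% were higher in the same order.

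The 20-week calls can be set beside the split between the wild type pools. Of the 12 members higher in non-myocytes, 7 rose in the mutant ventricle (Scn7a, Cacnb3, Scn2a1, Cacna1a, Scn2b, Cacna1d and Scn3b), Cacna1h fell and 4 were not called. Of all genes higher in non-myocytes that were tested at 20 weeks, 39.9% rose and 7.22% fell. Of the 16 called higher in cardiomyocytes, 8 fell (Scn4a, Hcn4, Cacna1g, Scn4b, Scn10a, Cacna1s, Cacnb2 and Cacna1c), 3 rose, among them Cacnb1 (of no settled direction between the pools), and 5 were not called, among them Hcn2. Of all genes higher in cardiomyocytes, 43.2% fell and 9.68% rose, and the difference between the members and other genes split in this way was not tested. Fibroblast markers were higher and cardiomyocyte markers lower in the same ventricles, as given above. Of these 8, Scn4a, Hcn4, Cacna1g, Scn4b and Cacnb2 were also called lower in the cardiomyocyte pools, where 11.8% of all genes were. The Cacnb2 call there was lost under several settings given with its values. The 8 were picked by their fall at 20 weeks, and the share of all genes picked in that way was not computed. Cardiomyocyte markers in these pools summed to 86840 to 95367 CPM in wild type and 61291 to 72409 CPM in PLNR9C.

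**Figure D2:**
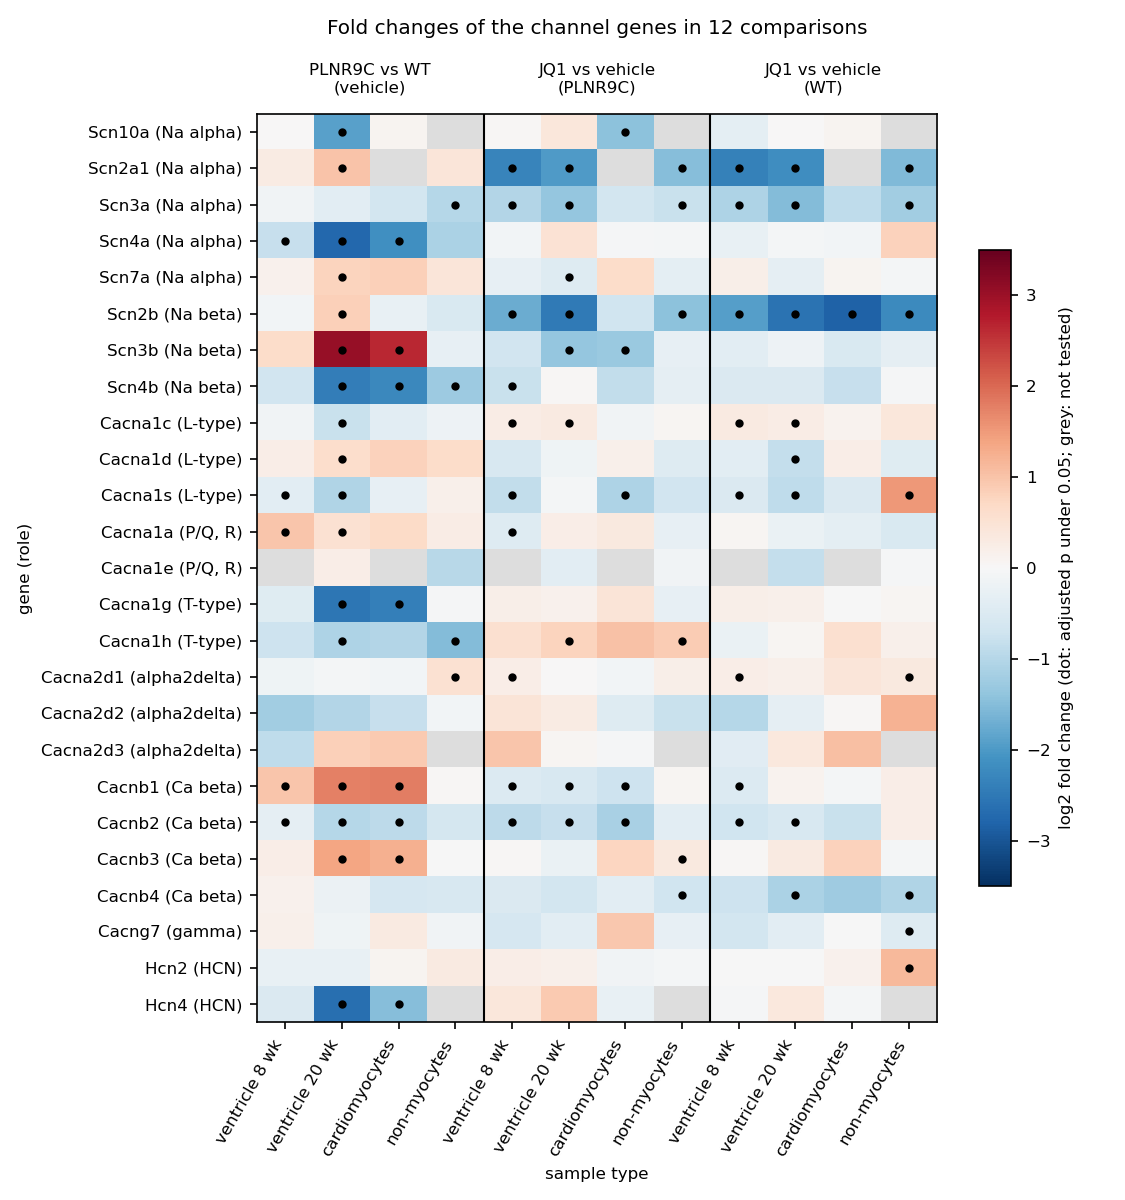
Log2 fold changes of 25 members (rows, ordered by role) in 12 comparisons (columns): the genotypes under vehicle, then the JQ1 effect within PLNR9C mice, then that within wild type mice, each in 4 sample types. Red is higher and blue lower in the first-named group, a dot marks an adjusted p under 0.05, and grey cells were not tested. The left block shows Scn3b, Cacnb1 and Cacnb3 in red and Scn4a, Scn4b, Cacna1g and Hcn4 in blue at 20 weeks and in cardiomyocytes, and the other blocks show Scn2a1, Scn2b and Scn3a in blue.

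The skeletal muscle pore Scn4a (chromosome 11, 106318593 to 106349390, minus strand) read 89.2, 105 and 71.3 CPM in wild type and 13.4, 10.9 and 15.2 CPM in PLNR9C vehicle ventricles at 20 weeks. All 3 mutant libraries lay far below the wild type ones, the largest fall among the members (log2 fold change -2.75 ± 0.26, adjusted p = 1.9e-05). Scn4a was already lower at 8 weeks, with 85.2, 75.8 and 79.4 against 45.4, 47.2 and 45.9 CPM (-0.79 ± 0.12, adjusted p = 0.00049). In cardiomyocytes it read 81.9, 62.8 and 66.5 against 18.9, 16.7 and 12.4 CPM (-2.13 ± 0.28, adjusted p = 0.0003). In the pools too the groups were apart.

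Among the less abundant pores, Scn10a, the sensory neuron channel Nav1.8, fell from 4.33, 4.97 and 2.84 to 1.31, 0.872 and 1.02 CPM at 20 weeks (-1.90 ± 0.26, adjusted p = 9.2e-06) with no overlap, but was not called in cardiomyocytes (0.09 ± 0.38, adjusted p = 0.89). Scn7a rose at 20 weeks from 29.9, 32.8 and 31.4 to 56.5, 56.99 and 46.9 CPM (0.77 ± 0.12, adjusted p = 8.4e-05). It is the leading member in non-myocytes, where it read 147, 149 and 180.1 and 199, 210.3 and 234 CPM (0.43 ± 0.15, adjusted p = 0.067). The brain channel gene Scn2a1, today named Scn2a, read 0.822, 1.999 and 1.62 and 2.78, 3.49 and 2.67 CPM (1.01 ± 0.34, adjusted p = 0.023), a call lost without wild type replicate 1 or PLNR9C replicate 2 (adjusted p = 0.111 and 0.0867). Scn3a, another brain channel, was not called at 20 weeks (-0.36 ± 0.22) but fell in non-myocytes from 10.7, 14.6 and 18.9 to 4.7, 8.63 and 8.88 CPM (-0.996 ± 0.24, adjusted p = 0.0097), a call lost without wild type replicate 3 (adjusted p = 0.0542).

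The 4 sodium beta subunits, single-span proteins that tune gating and cell adhesion, moved in opposite directions. Scn4b fell at 20 weeks from 177, 139.9 and 183 to 20.6, 34.8 and 39.4 CPM (log2 fold change -2.41 ± 0.29, adjusted p = 0.00012). In cardiomyocytes it fell from 148, 138 and 164 to 35.9, 37.3 and 21.02 CPM (-2.25 ± 0.35, adjusted p = 0.00098). Neither pair of groups overlapped. At 8 weeks Scn4b read 107, 146 and 111 and 67.6, 63.9 and 98.2 CPM, which did not pass (-0.67 ± 0.26, adjusted p = 0.13). In non-myocytes it fell from 11.8, 15.7 and 16.1 to 3.83, 6.997 and 7.46 CPM (-1.26 ± 0.23, adjusted p = 0.0017), in pools whose cardiomyocyte markers were also lower, and the part of these in the fall was not tested.

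Scn3b (chromosome 9, 40269216 to 40291618, plus strand) went the other way and had the largest rise of any member at 20 weeks. It read 0.649, 1.69 and 1.67 CPM in wild type and 10.9, 11.1 and 10.9 CPM in PLNR9C (3.04 ± 0.24, adjusted p = 1.4e-08). In cardiomyocytes it read 0.886, 0.4299 and 0.662 and 4.83, 2.87 and 4.69 CPM (2.63 ± 0.37, adjusted p = 0.00035), and in non-myocytes 6.03, 5.07 and 3.599 and 4.79, 4.27 and 3.02 CPM (-0.28 ± 0.25, adjusted p = 0.48). In wild type Scn3b was thus higher in non-myocytes, while the mutant's rise was called in the cardiomyocyte pools and not in the non-myocyte ones. Whether these 2 fold changes differ was not tested. Scn2b, also more abundant in non-myocytes, read 2.29, 2.35 and 2.48 and 4.56, 5.598 and 2.43 CPM (0.83 ± 0.29, adjusted p = 0.026), a call lost when any of 5 of the 6 libraries was left out (adjusted p up to 0.159).

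As a share of the summed RPKM of the 4 sodium beta genes, Scn4b made up 72.8 to 74% in wild type vehicle ventricles at 20 weeks and 11.3 to 19% in PLNR9C ones. Scn3b went from 0.205 to 0.672% to 3.97 to 4.55%. In cardiomyocytes the shares of Scn4b were alike, 70 to 75.7% and 9.34 to 19%. At 8 weeks the PLNR9C share of Scn4b lay between, at 40.3 to 49.7% against 64.1 to 66.7% in wild type. These shares describe messenger RNA per annotated length, and no test was made of them.

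**Figure D3:**
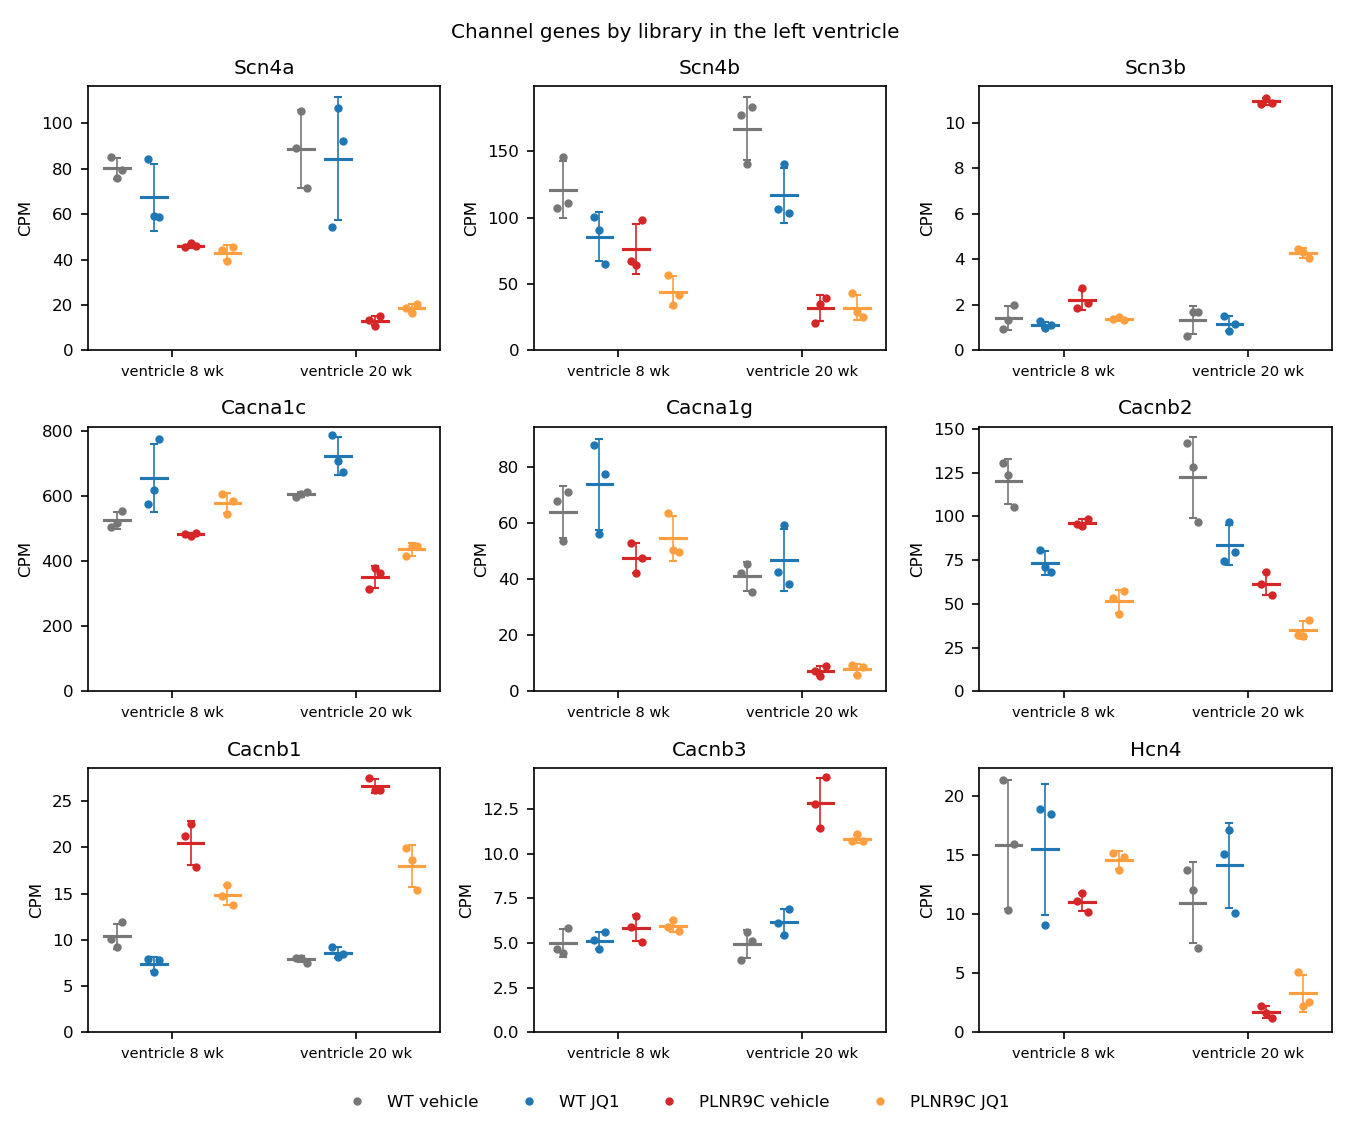
CPM (y axes, from 0) of 9 members in each left ventricle library at 8 and 20 weeks, with 1 point per library, a horizontal line at the mean and bars of 1 SD over 3 libraries. At 20 weeks the PLNR9C vehicle libraries lie below the wild type vehicle ones for Scn4a, Scn4b, Cacna1c, Cacna1g, Cacnb2 and Hcn4 and above them for Scn3b, Cacnb1 and Cacnb3.

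Of the L-type pores, Cacna1c read 596, 606 and 612 CPM in wild type vehicle and 313, 379 and 363 CPM in PLNR9C vehicle ventricles at 20 weeks, a fall with no overlap (-0.78 ± 0.08, adjusted p = 3.9e-07). It was not called at 8 weeks (-0.12 ± 0.08). In cardiomyocytes it read 489, 476 and 571 and 289, 389 and 504 CPM, where the groups overlapped and the difference was not called (-0.38 ± 0.19, adjusted p = 0.15). Cacna1s fell at 20 weeks from 19.5, 18.9 and 18.1 to 7.302, 9.13 and 10.8 CPM (-1.06 ± 0.14, adjusted p = 7.2e-06). At 8 weeks it read 12.03, 14.5 and 11.6 and 10.3, 9.34 and 9.84 CPM (-0.37 ± 0.12, adjusted p = 0.043), a call lost without any of 5 of the 6 libraries (adjusted p up to 0.232), with total-read scaling (adjusted p = 0.165), without a filter on low counts (adjusted p = 0.0536) and with a replicate block (adjusted p = 0.0567). Cacna1d, the L-type pore Cav1.3 of sinoatrial and endocrine cells, rose from 4.37, 5.11 and 3.902 to 8.07, 5.87 and 6.51 CPM at 20 weeks (0.62 ± 0.19, adjusted p = 0.015), a call lost without PLNR9C replicate 1 or wild type replicate 3 (adjusted p = 0.097 and 0.0584).

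The T-type pores open at more negative voltages than the L-type. Cacna1g, Cav3.1 (chromosome 11, 94408391 to 94474198, minus strand), fell at 20 weeks from 42.01, 45.5 and 35.4 to 7.17, 5.41 and 8.94 CPM (-2.52 ± 0.23, adjusted p = 4.4e-06). The fall in cardiomyocytes was from 54.6, 41.01 and 42.5 to 7.63, 11.7 and 6.69 CPM (-2.40 ± 0.24, adjusted p = 4.2e-05), while non-myocytes read 16.9, 15.7 and 14.4 and 18.02, 13.6 and 14.1 CPM (-0.04 ± 0.20). Cacna1h, Cav3.2 (chromosome 17, 25374287 to 25433783, minus strand), fell most in non-myocytes, from 10.99, 11.4 and 14.7 to 2.87, 4.63 and 5.48 CPM (-1.52 ± 0.21, adjusted p = 0.00028). In ventricle at 20 weeks it read 3.16, 2.22 and 3.04 and 1.14, 1.47 and 1.41 CPM (-1.08 ± 0.26, adjusted p = 0.0029). The non-myocyte fibroblast markers summed to 21130 to 21995 CPM in wild type vehicle and 30679 to 35200 CPM in PLNR9C vehicle pools. Endothelial markers summed to 5858 to 7080 and 3578 to 4520 CPM and macrophage markers to 1099 to 1286 and 2460 to 2848 CPM. Smooth muscle and pericyte markers summed to 2414 to 2903 and 1469.5 to 1797 CPM and Schwann cell markers to 106 to 110 and 72.9 to 84.5 CPM. In ventricle at 20 weeks smooth muscle and pericyte markers summed to 1355 to 1453.5 and 847 to 1029 CPM. The part of all these in the Cacna1h and Scn3a falls was not tested. Cacna1a, the P/Q-type pore of nerve terminals, rose at 8 weeks from 4.75, 5.75 and 5.37 to 9.38, 11.7 and 10.4 CPM (0.98 ± 0.14, adjusted p = 0.00014) and at 20 weeks from 6.53, 7.06 and 5.37 to 9.45, 7.94 and 9.91 CPM (0.52 ± 0.16, adjusted p = 0.012), the latter lost without wild type replicate 3 (adjusted p = 0.0582).

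The calcium beta subunits are cytosolic partners that bring the pore to the membrane, and here too one fell while others rose. Cacnb2, the main cardiac form, fell at 20 weeks from 142, 128 and 96.8 to 61.3, 68.2 and 55.2 CPM (-0.99 ± 0.15, adjusted p = 0.00013). At 8 weeks the fall was smaller (-0.32 ± 0.09, adjusted p = 0.029) and lost with total-read scaling (adjusted p = 0.12) or without any of 5 of the 6 libraries (adjusted p up to 0.141). In cardiomyocytes it read 101, 81.4 and 73.3 and 52.7, 60.4 and 22.9 CPM (-0.91 ± 0.29, adjusted p = 0.04). This call was lost without any of 4 of the 6 libraries (adjusted p up to 0.127), with total-read scaling (adjusted p = 0.116), without a filter on low counts (adjusted p = 0.0941) and with a replicate block (adjusted p = 0.0548). Cacnb1, the skeletal muscle form, rose at 20 weeks from 8.05, 8.08 and 7.5 to 27.5, 26.2 and 26.2 CPM (1.76 ± 0.11, adjusted p = 1e-09). It also rose at 8 weeks, from 10.04, 9.27 and 11.9 to 21.2, 22.5 and 17.9 CPM (0.98 ± 0.12, adjusted p = 2.7e-05), and in cardiomyocytes, from 6.996, 6.19 and 7.38 to 21.6, 25.1 and 24.4 CPM (1.79 ± 0.15, adjusted p = 1.1e-05). In none of these 3 sample types did the groups overlap. In non-myocytes it read 7.27, 6.597 and 5.999 and 8.27, 7.45 and 4.82 CPM (0.05 ± 0.21, adjusted p = 0.9). Cacnb3, the leading beta gene of non-myocytes, rose at 20 weeks from 4.07, 5.596 and 5.12 to 12.8, 11.4 and 14.3 CPM (1.38 ± 0.15, adjusted p = 4.9e-07) and in cardiomyocytes from 1.33, 1.72 and 1.42 to 3.65, 3.38 and 3.56 CPM (1.24 ± 0.33, adjusted p = 0.016), the latter lost without wild type replicate 1 or 3 (adjusted p = 0.0583 and 0.0553). Fibroblast markers were higher in the same PLNR9C libraries of both kinds, and their part was not tested. Within non-myocytes it was not called (-0.01 ± 0.11).

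Of the summed RPKM of the 4 calcium beta genes, Cacnb2 held 72.7 to 80% in wild type vehicle ventricle at 20 weeks and 32.6 to 38.7% in PLNR9C, and Cacnb1 held 14.1 to 17.5% and 46.3 to 48.4%. In cardiomyocytes Cacnb1 held 17.2 to 22.9% in wild type and 52.3 to 70.7% in PLNR9C. At 8 weeks the shares of Cacnb1 were 17.6 to 23.6% and 33.2 to 38.8%. The leading beta gene by this measure was therefore Cacnb2 in every wild type vehicle ventricle and Cacnb1 in every PLNR9C vehicle ventricle at 20 weeks.

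The promoters of this oppositely moving pair are shown because both genes begin in GC-rich sequence at the start listed in the deposited tables. RefSeq (GRCm38.p6) gave promoter windows of 300 bases for 20 of the 28 members, 29 windows in all, 13 of them at the start listed in the deposited tables. Capitals mark the GC box GGGCGG, searched on both strands (CCGCCC on the other).
Cacnb2 (chr2:14604056-14604355, plus strand): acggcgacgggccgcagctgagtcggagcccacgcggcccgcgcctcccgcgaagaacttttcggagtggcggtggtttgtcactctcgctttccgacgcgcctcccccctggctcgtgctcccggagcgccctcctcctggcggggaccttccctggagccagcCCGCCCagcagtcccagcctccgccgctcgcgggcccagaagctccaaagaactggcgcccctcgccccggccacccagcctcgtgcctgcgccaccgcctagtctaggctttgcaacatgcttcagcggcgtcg
Cacnb1 (chr11:98022578-98022877, minus strand): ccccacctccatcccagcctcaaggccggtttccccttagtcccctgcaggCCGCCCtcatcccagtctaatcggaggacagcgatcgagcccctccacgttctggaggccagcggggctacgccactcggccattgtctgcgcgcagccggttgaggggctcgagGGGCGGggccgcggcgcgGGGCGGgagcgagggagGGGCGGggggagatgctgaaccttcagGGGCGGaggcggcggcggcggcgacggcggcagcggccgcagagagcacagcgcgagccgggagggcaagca
Cacnb2 held 1 GC box and Cacnb1 held 5 in these windows. Each gene had another window, 219786 bases from the listed start for Cacnb2 and 4255 for Cacnb1. Those held 0 GC boxes, with a GC content of 44% and 59.3%, and which start these samples use was not tested. A GC box was in 51.7% of the members' windows and in 35.7% of all 32851 windows. The M-CAT motif CATTCC was in 27.6% and 14.7%, the GATA motif AGATAA in 3.45% and 11.2%, and the AP-1 motif TGANTCA in 0 of 29 and 7.81%. These matches describe the letters of the windows, several of which belong to the same gene.

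The alpha2delta subunits are extracellular partners of the calcium channels. Cacna2d1, the main cardiac form, read 170.0, 145 and 150.1 CPM in wild type and 144, 159 and 140.3 CPM in PLNR9C vehicle ventricles at 20 weeks, which overlapped (-0.07 ± 0.08, adjusted p = 0.52). In non-myocytes it rose from 39.4, 40.8 and 35.7 to 53.01, 53.97 and 61.3 CPM (0.54 ± 0.11, adjusted p = 0.004). Cacna2d2 read 7.87, 6.93 and 4.36 and 3.79, 3.12 and 2.48 CPM at 20 weeks (-1.02 ± 0.42, adjusted p = 0.069) and passed in none of the 4 sample types. The brain forms Cacna2d3 and Cacnb4, the gamma subunit Cacng7 and the R-type pore Cacna1e also passed in none of those where they were tested. At 20 weeks their fold changes were 0.84 ± 0.36, -0.22 ± 0.28, -0.16 ± 0.29 and 0.24 ± 0.56.

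Of the pacemaker channels, Hcn4, the main sinoatrial isoform (chromosome 9, 58823512 to 58860955, plus strand), read 13.8, 12.04 and 7.15 CPM in wild type and 2.28, 1.65 and 1.21 CPM in PLNR9C vehicle ventricles at 20 weeks (-2.65 ± 0.39, adjusted p = 0.00019). In cardiomyocytes it read 11.9, 7.31 and 9.46 and 3.65, 3.59 and 2.95 CPM (-1.48 ± 0.23, adjusted p = 0.00063). The groups did not overlap in either comparison.

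Hcn2 remained the leading HCN gene throughout. It read 64.1, 66.2 and 67.8 CPM in wild type and 43.5, 61.5 and 59.8 CPM in PLNR9C vehicle ventricles at 20 weeks, with no call (-0.27 ± 0.12, adjusted p = 0.085). Of the summed RPKM of the 3 HCN genes it held 84.3 to 91.1% and 91.9 to 95% and Hcn4 8.08 to 15.3% and 1.62 to 4.04%. Markers of conduction and pacemaker tissue, 8 genes including Tbx3, Isl1 and Cntn2, summed to 75.4 to 85.97 CPM in wild type and 66.2 to 76.4 CPM in PLNR9C ventricles. Of the 7 conduction markers tested, 1 rose, 1 fell and 5 were not called. Of 5 atrial markers tested, 1 rose and 2 fell. Nppa, which stressed ventricle also expresses, rose from 49.01 ± 17.2 to 3745 ± 275 CPM. Stard10 fell from 15.2 ± 1.09 to 6.93 ± 0.159 CPM and Tbx5 from 28.8 ± 0.173 to 16.4 ± 0.588 CPM. Myl7 and Myl4, the atrial myosin light chains, were not called. Myl7 was at 0.238 ± 0.294 CPM in wild type and 0.145 ± 0.0849 CPM in PLNR9C, and Myl4 at 0.479 ± 0.185 and 1.23 ± 0.192 CPM. The part of these tissues in the HCN values was not tested.

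Between 8 and 20 weeks the genotype effect itself changed for 12 of the 28 members (where 15.5% of all genes passed), 4 toward a higher and 8 toward a lower value (7.03% and 8.51%). In a fit of all 24 ventricle libraries, the change was 2.42 ± 0.37 for Scn3b, 1.16 ± 0.20 for Cacnb3 and 0.78 ± 0.16 for Cacnb1. Toward lower values it was -2.12 ± 0.53 for Hcn4, -2.08 ± 0.31 for Cacna1g, -1.95 ± 0.30 for Scn4a, -1.91 ± 0.34 for Scn10a, -1.74 ± 0.39 for Scn4b, -0.68 ± 0.18 for Cacna1s, -0.67 ± 0.19 for Cacnb2 and -0.65 ± 0.12 for Cacna1c. At 8 weeks alone Scn3b (0.64 ± 0.27), Cacnb3 (0.23 ± 0.15), Hcn4 (-0.51 ± 0.30), Cacna1g (-0.43 ± 0.18) and Scn10a (0.02 ± 0.23) were not called. The call of Cacnb2 for the change was lost without any of 5 of the 12 vehicle libraries (adjusted p up to 0.0676) and without a filter on low counts (adjusted p = 0.0533). Age and the preparation of each table cannot be told apart in levels, but a shift shared by all libraries of a table drops out of this difference.

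**Figure D4:**
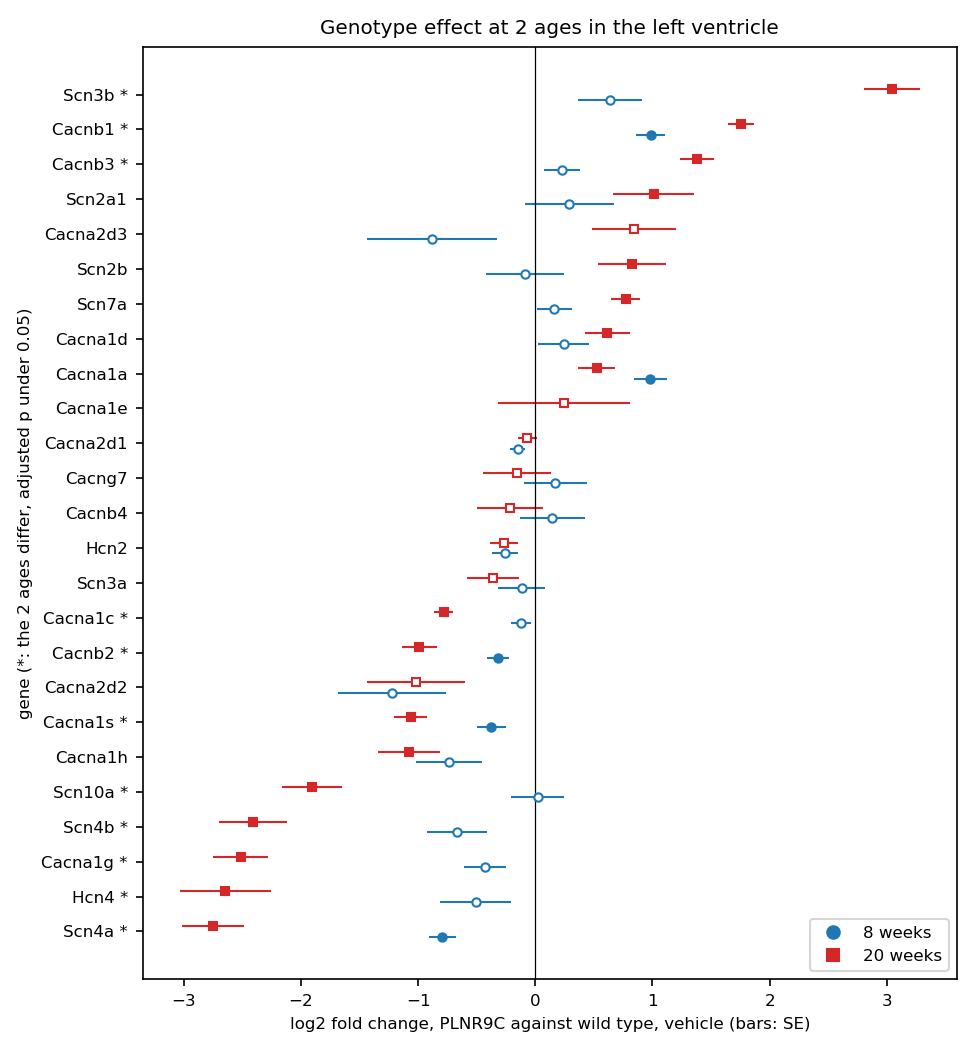
Log2 fold change of PLNR9C against wild type with vehicle (x axis) for 25 members (y axis, ordered by the 20-week value) at 8 weeks (blue circles) and 20 weeks (red squares), with bars of 1 standard error. Filled symbols passed at an adjusted p under 0.05, and an asterisk marks 11 members whose 2 effects differed. Scn3b, Cacna1g, Hcn4, Scn4a and Scn4b lie within 0.8 of 0 at 8 weeks and beyond 2.4 in size at 20 weeks.

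With JQ1, Scn2b, Scn2a1, Scn3a and Cacnb2 fell and Cacna1c rose in ventricles of both genotypes at both ages. In PLNR9C ventricles 10 of 27 members passed at 8 weeks, 2 higher and 8 lower, where 33.1% of all genes passed (15.5% and 17.7%), and 11 of 28 at 20 weeks, 3 higher and 8 lower, where 31.9% passed (15.9% and 16.1%). In wild type ventricles 10 of 27 passed at 8 weeks, 3 higher and 7 lower (29.8% of all genes, 14.3% and 15.4% by direction), and 9 of 28 at 20 weeks, 2 higher and 7 lower (27.2%, 12.3% and 14.9%). In cardiomyocytes 6 of 26 passed in PLNR9C (10.5% of all genes), all lower (4.33% of all genes, and 6.14% higher), and 1 of 26 in wild type (3.63%), also lower (1.93%, and 1.7% higher). In non-myocytes 7 of 24 passed in PLNR9C, 2 higher and 5 lower (36.2%, 16.7% and 19.5%), and 8 of 24 in wild type, 3 higher and 5 lower (38%, 18% and 20%). The members' median was -0.28 and -0.34 at 8 weeks in PLNR9C and wild type, beside -0.01 and 0.00 for all genes, and -0.07 and -0.16 at 20 weeks, beside 0.00 and -0.01. With total-read scaling, the counts of higher and lower calls were 0 and 12 at 8 weeks in PLNR9C, 2 and 8 at 8 weeks in wild type, 1 and 9 at 20 weeks in wild type, 1 and 7 in PLNR9C non-myocytes and 1 and 5 in wild type ones. That scaling moved the median of all genes by -0.11, -0.05, -0.10, -0.15 and -0.19 in the same order. Of all genes called with it, only 25%, 35.7%, 25.7%, 24.8% and 23.4% were higher, so lower calls prevailed among all genes too. The comparisons of JQ1 with vehicle share their vehicle libraries with the genotype comparisons above, so the values are given side by side only.

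Scn2b, Scn2a1 and Scn3a fell with JQ1 in both genotypes at both ages and in both non-myocyte comparisons. For Scn2b the 20-week wild type libraries read 2.29, 2.35 and 2.48 CPM with vehicle and 0.569, 0.272 and 0.342 CPM with JQ1 (-2.59 ± 0.39, adjusted p = 0.00011). The PLNR9C ones read 4.56, 5.598 and 2.43 and 0.594, 1.08 and 0.603 CPM (-2.46 ± 0.32, adjusted p = 2.3e-05). In wild type non-myocytes, where the gene is more abundant, it read 11.4, 15.3 and 17.3 and 2.91, 3.62 and 2.89 CPM (-2.22 ± 0.33, adjusted p = 0.00026), and in PLNR9C ones 5.31, 9.99 and 15.02 and 3.15, 3.14 and 4.92 CPM (-1.44 ± 0.33, adjusted p = 0.0048). The JQ1 libraries were below the vehicle libraries in each of these 4 comparisons. At 8 weeks the fold changes of Scn2b were -1.94 ± 0.40 in wild type and -1.72 ± 0.39 in PLNR9C. In wild type cardiomyocytes Scn2b was the 1 member called (-2.83 ± 0.73, adjusted p = 0.0497), a call lost without any 1 of the 6 libraries.

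The promoter window of Scn2b (RefSeq, GRCm38.p6) is shown because it is the member with the largest fall under JQ1 at 20 weeks. It holds none of the 4 motifs searched.
Scn2b (chr9:45117626-45117925, plus strand): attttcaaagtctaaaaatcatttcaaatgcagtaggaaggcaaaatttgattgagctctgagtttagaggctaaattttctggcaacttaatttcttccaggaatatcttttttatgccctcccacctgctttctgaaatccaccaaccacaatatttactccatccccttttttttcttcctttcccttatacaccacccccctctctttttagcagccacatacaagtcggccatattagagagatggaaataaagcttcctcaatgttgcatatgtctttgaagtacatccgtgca
Its GC content was 38.3%, against 71.7% for the Cacnb2 window and 73.7% for the Cacnb1 window, and these 2 genes also fell with JQ1 in ventricle. Windows of Scn2a1 held 33% and 47.7% GC and those of Cacnb4 78.3%, 69.7% and 49.7%. A link between GC content and the JQ1 effect was not tested.

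Scn2a1 read 0.822, 1.999 and 1.62 CPM with vehicle and 0.3101, 0.0906 and 0.585 CPM with JQ1 in wild type ventricle at 20 weeks (-2.17 ± 0.46, adjusted p = 0.0022), and 2.78, 3.49 and 2.67 and 0.769, 0.903 and 0.565 CPM in PLNR9C (-1.98 ± 0.36, adjusted p = 0.00054). In non-myocytes it read 6.12, 7.02 and 6.51 and 1.61, 2.79 and 2.33 CPM in wild type (-1.54 ± 0.26, adjusted p = 0.00045) and 8.18, 11.8 and 6.33 and 2.98, 3.34 and 3.099 CPM in PLNR9C (-1.48 ± 0.24, adjusted p = 0.00041). At 8 weeks the fold changes were -2.37 ± 0.50 and -2.31 ± 0.46. Scn3a at 20 weeks read 3.68, 4.44 and 4.51 and 1.14, 1.54 and 1.71 CPM in wild type (-1.52 ± 0.25, adjusted p = 0.00023) and 3.99, 3.44 and 2.28 and 1.54, 1.18 and 1.13 CPM in PLNR9C (-1.34 ± 0.24, adjusted p = 0.0005). In non-myocytes its fold changes were -1.21 ± 0.24, adjusted p = 0.0015 in wild type and -0.79 ± 0.26, adjusted p = 0.029 in PLNR9C, the latter lost without any of 5 of the 6 libraries (adjusted p up to 0.104). The calcium beta gene Cacnb4, also more abundant in non-myocytes, fell there with JQ1 in wild type from 6.03, 6.09 and 7.88 to 3.01, 4.03 and 2.71 CPM (-1.04 ± 0.24, adjusted p = 0.0039). In PLNR9C it read 3.48, 5.18 and 4.82 and 2.89, 2.02 and 3.42 CPM (-0.69 ± 0.25, adjusted p = 0.046). This call was lost with DESeq2 (adjusted p = 0.0535), with either other filter (adjusted p = 0.0502 and 0.0588), with a replicate block (adjusted p = 0.0554) and without any of 4 of the 6 libraries (adjusted p up to 0.18).

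**Figure D5:**
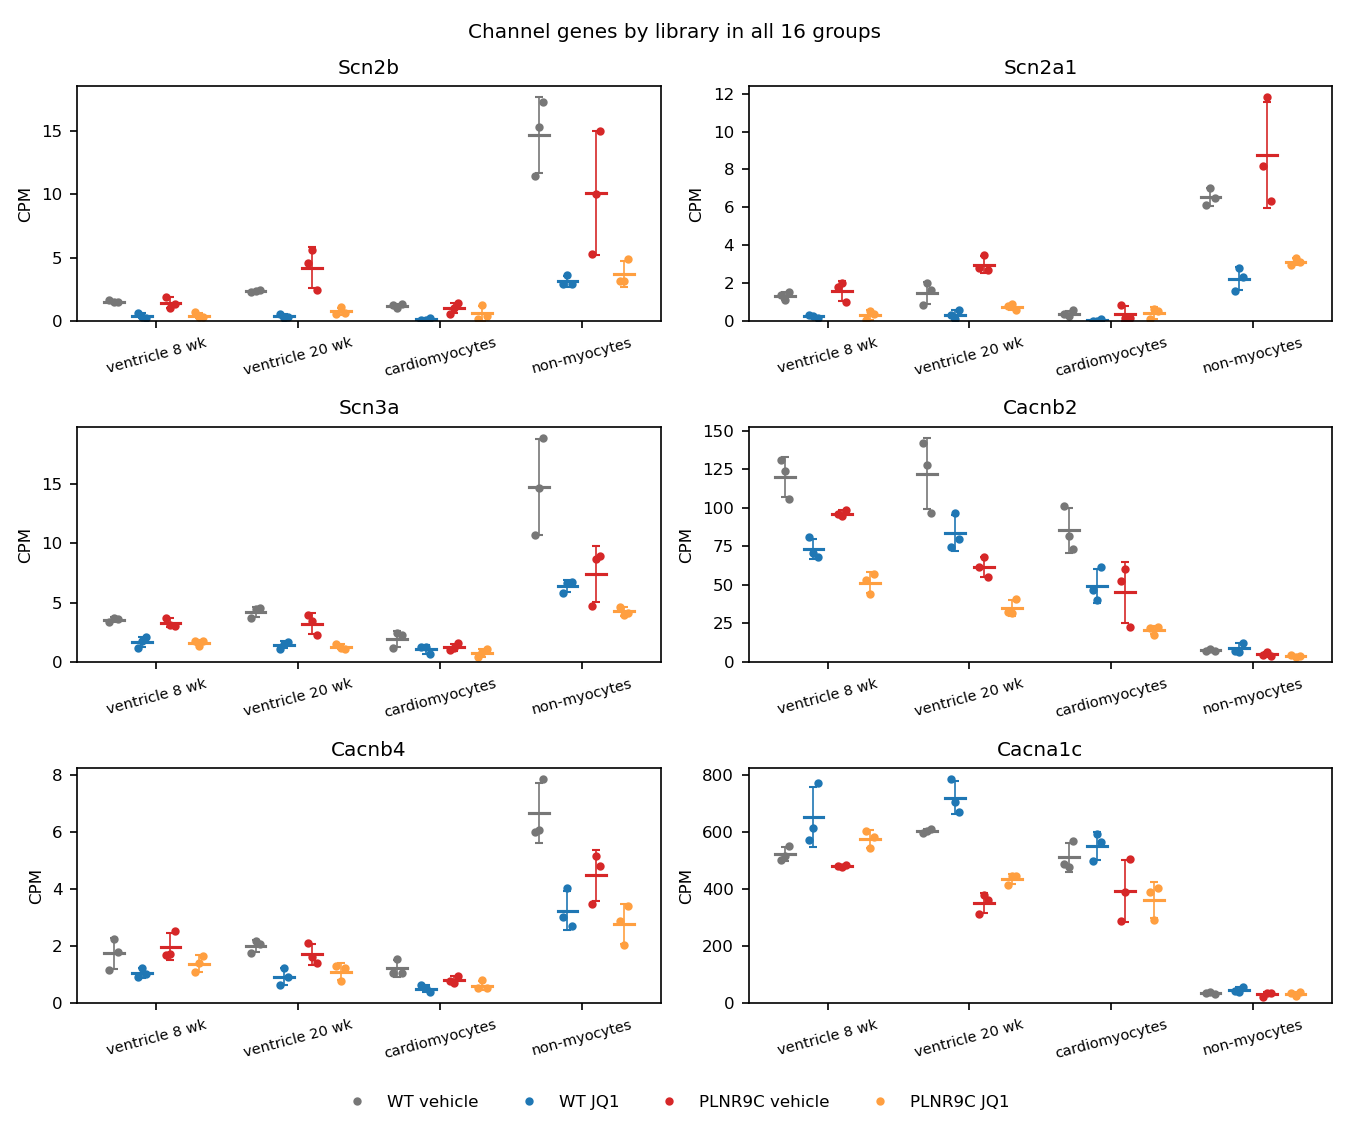
CPM (y axes, from 0) of 6 members in each of the 48 libraries, by sample type and group, with 1 point per library, a horizontal line at the mean and bars of 1 SD over 3 libraries. Scn2b, Scn2a1, Scn3a and Cacnb4 reach their highest levels in vehicle non-myocytes and are lower there in the JQ1 groups, Cacnb2 is lowest in PLNR9C JQ1 within ventricles and within cardiomyocytes, and the mean of Cacna1c is higher with JQ1 than with vehicle in ventricles of each genotype and age.

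Cacnb2, lower in PLNR9C than in wild type, was lower again with JQ1 in ventricle. In PLNR9C ventricles at 20 weeks it read 61.3, 68.2 and 55.2 CPM with vehicle and 32.2, 31.9 and 41.1 CPM with JQ1 (-0.81 ± 0.15, adjusted p = 0.0015), and at 8 weeks 95.8, 94.5 and 98.6 and 53.2, 44.1 and 57.2 CPM (-0.91 ± 0.09, adjusted p = 2.6e-06). In wild type it read 131, 124 and 106 and 80.97, 70.9 and 68.3 CPM at 8 weeks (-0.71 ± 0.09, adjusted p = 2.9e-05) and 142, 128 and 96.8 and 74.6, 96.6 and 79.8 CPM at 20 weeks (-0.55 ± 0.15, adjusted p = 0.016). The last was lost without any of 4 of the 6 libraries (adjusted p up to 0.076). Cardiomyocyte markers were higher with JQ1 at 20 weeks, at 96556 to 105440 CPM in wild type and 57914 to 61543 CPM in PLNR9C. At 8 weeks they also rose, from 74218 to 79057 CPM with vehicle to 83381 to 87321 CPM with JQ1 in wild type. In PLNR9C they read 60290 to 64676 and 72255 to 79602 CPM at 8 weeks. The part of these markers in the Cacnb2 values was not tested.

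The pore that Cacnb2 serves moved the other way. Cacna1c rose with JQ1 at 20 weeks in PLNR9C, from 313, 379 and 363 to 414, 447 and 446 CPM (0.31 ± 0.08, adjusted p = 0.007), and in wild type, from 596, 606 and 612 to 787, 706 and 672 CPM (0.26 ± 0.08, adjusted p = 0.024). At 8 weeks the rises were 0.26 ± 0.08, adjusted p = 0.024 in PLNR9C and 0.32 ± 0.08, adjusted p = 0.0078 in wild type. With total-read scaling the 8-week rise in PLNR9C (0.15, adjusted p = 0.157) and the 20-week rise in wild type (0.15, adjusted p = 0.142) were lost. The first of these was also lost without any of 5 of the 6 libraries (adjusted p up to 0.0959), and the second without JQ1 replicate 1 (adjusted p = 0.101). Cacna2d1 rose at 8 weeks in both genotypes (0.22 ± 0.06, adjusted p = 0.009 in PLNR9C and 0.23 ± 0.06, adjusted p = 0.0089 in wild type), and both calls were lost with total-read scaling (adjusted p = 0.185 and 0.0535). Each was also lost without 1 library, JQ1 replicate 1 in PLNR9C (adjusted p = 0.0566) and vehicle replicate 3 in wild type (adjusted p = 0.0597). Cacna1c was not called with JQ1 in the cardiomyocyte pools of either genotype. Summed cardiomyocyte markers were higher with JQ1 in ventricles of both genotypes and ages, as given above. Their part in the Cacna1c and Cacna2d1 rises was not tested.

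Some members high in PLNR9C fell with JQ1 there. Scn3b at 20 weeks went from 10.9, 11.1 and 10.9 to 4.47, 4.31 and 4.07 CPM (-1.35 ± 0.20, adjusted p = 0.0001), above the 1.499, 0.861 and 1.17 CPM of wild type JQ1 libraries. Cacnb1 went from 27.5, 26.2 and 26.2 to 19.9, 18.6 and 15.4 CPM (-0.57 ± 0.10, adjusted p = 0.00054) and Scn7a from 56.5, 56.99 and 46.9 to 36.3, 34.6 and 46.1 CPM (-0.46 ± 0.12, adjusted p = 0.0093), the latter lost without JQ1 replicate 2 (adjusted p = 0.0503). Cacna1h, low in PLNR9C, rose with JQ1 from 1.14, 1.47 and 1.41 to 2.97, 1.98 and 1.88 CPM (0.78 ± 0.26, adjusted p = 0.031), lost without any of 4 of the 6 libraries (adjusted p up to 0.17). In PLNR9C non-myocytes it rose from 2.87, 4.63 and 5.48 to 7.97, 7.08 and 9.08 CPM (0.90 ± 0.22, adjusted p = 0.0059).

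The members with the largest falls in PLNR9C were not called with JQ1 at 20 weeks. Scn4a read 18.9, 16.3 and 20.3 CPM in PLNR9C JQ1 ventricles (0.49 ± 0.27, adjusted p = 0.19), Scn4b 42.8, 28.8 and 24.9 CPM (0.04 ± 0.28, adjusted p = 0.94), Cacna1g 9.43, 5.76 and 8.59 CPM (0.15 ± 0.24, adjusted p = 0.69) and Hcn4 5.14, 2.22 and 2.56 CPM (0.91 ± 0.41, adjusted p = 0.12). For each of the 4 genes all PLNR9C JQ1 libraries remained below all 3 wild type vehicle libraries.

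At 8 weeks other members also passed. Cacna1s fell in PLNR9C from 10.3, 9.34 and 9.84 to 4.83, 5.38 and 6.09 CPM (-0.86 ± 0.13, adjusted p = 5e-05) and in wild type from 12.03, 14.5 and 11.6 to 8.98, 8.45 and 9.64 CPM (-0.50 ± 0.12, adjusted p = 0.0044). Cacnb1 fell in both genotypes (-0.47 ± 0.12, adjusted p = 0.0045 in PLNR9C and -0.49 ± 0.13, adjusted p = 0.0072 in wild type). The wild type call was lost without vehicle replicate 3 (adjusted p = 0.0515). Cacna1a (-0.46 ± 0.14, adjusted p = 0.015) and Scn4b (-0.79 ± 0.26, adjusted p = 0.048) fell in PLNR9C. The call of Cacna1a was lost without JQ1 replicate 3 or vehicle replicate 2 (adjusted p = 0.0819 and 0.078), and that of Scn4b without any of 5 of the 6 libraries (adjusted p up to 0.141), without a filter on low counts (adjusted p = 0.0677) and with a replicate block (adjusted p = 0.0867). At 20 weeks in wild type, Cacna1s (-0.90 ± 0.14, adjusted p = 0.00015), Cacna1d (-0.83 ± 0.21, adjusted p = 0.0076) and Cacnb4 (-1.10 ± 0.31, adjusted p = 0.013) fell, the last lost without JQ1 replicate 1 (adjusted p = 0.06).

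In PLNR9C cardiomyocytes Cacnb1 fell with JQ1, from 21.6, 25.1 and 24.4 to 15.4, 13.5 and 14 CPM (-0.73 ± 0.15, adjusted p = 0.0099), and Scn3b fell from 4.83, 2.87 and 4.69 to 1.37, 2.204 and 1.41 CPM (-1.30 ± 0.33, adjusted p = 0.026). Cacna1s (-1.07 ± 0.24, adjusted p = 0.015), Cacnb2 (-1.12 ± 0.30, adjusted p = 0.038) and Scn10a (-1.42 ± 0.42, adjusted p = 0.046) were also called lower. The calls of Scn3b (adjusted p up to 0.0907), Cacna1s (0.0509), Cacnb2 (0.153) and Scn10a (0.165) were lost without any of 3, 1, 5 and 4 of the 6 libraries, that of Cacna1s without vehicle replicate 2. Without JQ1 replicate 2, whose fibroblast markers were highest, 3 members were called, 3 also without any 1 vehicle library and 2 without JQ1 replicate 3. Of all genes 651, 676 to 1094 and 871 passed in these fits, beside 1480 with all libraries. In a fit of the 6 libraries alone 0 members were called, where only 22 of all genes passed. In the fit of all 12, 10 of 26 members and 3895 of 14142 genes had an unadjusted p under 0.05.

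In wild type non-myocytes Hcn2 rose with JQ1 from 3.01, 4.23 and 2.06 to 7.83, 6.41 and 6.44 CPM (1.15 ± 0.26, adjusted p = 0.0039), and Cacna1s read 0.177, 0.677 and 0.257 and 1.004, 1.14 and 1.12 CPM (1.51 ± 0.52, adjusted p = 0.035). The latter call was lost with DESeq2 (adjusted p = 0.0701), with total-read scaling (adjusted p = 0.0577), without a filter on low counts (adjusted p = 0.0512) and without any of 5 of the 6 libraries (adjusted p up to 0.121). The summed cardiomyocyte markers rose in the same libraries, as given above, and their part was not tested. Cacna2d1 rose (0.34 ± 0.11, adjusted p = 0.025) and Cacng7 fell (-0.46 ± 0.15, adjusted p = 0.022). The first call was lost with total-read scaling (0.15, adjusted p = 0.238) and without any of 3 of the 6 libraries (adjusted p up to 0.0913). The second was lost without a filter on low counts (adjusted p = 0.0562) and without any of 4 of the 6 (adjusted p up to 0.0674). In PLNR9C non-myocytes Cacnb3 read 30.4, 28.9 and 23.2 and 34.2, 35.02 and 35.2 CPM (0.34 ± 0.11, adjusted p = 0.027), a call lost with total-read scaling (adjusted p = 0.251) and without any of 3 of the 6 libraries (adjusted p up to 0.109). For the genotype effect in these pools, libraries with the same replicate number were correlated, as given below, but the labels state no pairing. A fit of the 6 libraries with the number as a block called 8 of 24 members, 4 higher and 4 lower, in place of 5. Of all genes 3056 passed in place of 2861.

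The difference between the JQ1 effects in the 2 genotypes passed for 0 of 27 members at 8 weeks, 0 of 28 at 20 weeks, 0 of 26 in cardiomyocytes and 0 of 24 in non-myocytes with edgeR, where 0.00645%, 0.357%, 0% and 0% of all genes passed. Unadjusted, 3, 5, 5 and 6 members had p under 0.05. Of all genes 871 of 15501, 1641 of 15971, 954 of 14142 and 1391 of 15347 did. DESeq2 called 2 members at 20 weeks and 1 in non-myocytes, where it called 212 and 64 of all genes. At 20 weeks the members nearest the threshold were Cacnb1 (-0.70 ± 0.16, adjusted p = 0.066) and Cacna1s (0.83 ± 0.20, adjusted p = 0.094). A fold change that passed in 1 genotype only is therefore not shown to differ between genotypes.

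Set against wild type with JQ1, PLNR9C with JQ1 differed in 5 of 27 members at 8 weeks, 2 higher and 3 lower (5.97% of all genes, 3.43% and 2.55% by direction), and in 16 of 28 at 20 weeks, 8 in each direction (39.1%, 20.8% and 18.3%). In cardiomyocytes 17 of 26 differed, 7 higher and 10 lower (25.9%, 13.6% and 12.3%), and in non-myocytes 11 of 24, 3 higher and 8 lower (18.6%, 9.24% and 9.38%). With total-read scaling the higher and lower calls were 4 and 3 at 8 weeks and 11 and 7 at 20 weeks. That scaling raised the median of all genes by 0.07 and 0.29, and 80.9% and 86.5% of all genes called were then higher. At 20 weeks the fold changes under JQ1 were -2.19 ± 0.25 for Scn4a, -1.86 ± 0.28 for Scn4b, -2.56 ± 0.23 for Cacna1g, -2.09 ± 0.35 for Hcn4, -1.26 ± 0.15 for Cacnb2, 1.06 ± 0.11 for Cacnb1 and 1.87 ± 0.26 for Scn3b. Cacna2d1 was called lower (-0.23 ± 0.08, adjusted p = 0.028), but total-read scaling turned it to 0.06 and the call was lost without any of 3 of the 6 libraries (adjusted p up to 0.115). The count in cardiomyocytes dropped to 9 without PLNR9C JQ1 replicate 2, the library with the highest fibroblast sum. Of all genes 2391 then passed, beside 3662 with all libraries. In non-myocytes Scn4a (-2.002 ± 0.38) and Scn4b (-1.55 ± 0.23) fell. Cacna2d2 was called lower (-2.09 ± 0.56) but not without any of 3 of the 6 libraries (adjusted p up to 0.11, and -1.38 without wild type replicate 3). Cacna1s was called lower (-2.01 ± 0.58) but not without any of 5 of the 6 (adjusted p up to 0.102). These were pools whose cardiomyocyte markers summed to 1350 to 4492 CPM with PLNR9C JQ1 and 7274 to 9241 CPM with wild type JQ1.

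With JQ1 the share of Scn4b among the sodium beta genes of PLNR9C ventricle at 20 weeks was 16.6 to 23.5%. The range overlapped that of PLNR9C vehicle and lay far from the 72.8 to 74% of wild type vehicle. Among calcium beta genes Cacnb2 held 27.1 to 36.2% and Cacnb1 42.2 to 52.2%, and among HCN genes Hcn4 held 2.78 to 6.02%.

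Partner genes, whose products bind or traffic these channels, passed at 20 weeks at a share near that of all genes. The alternative settings and left-out libraries were applied to the channel members only, so no partner call was checked in that way. Total-read scaling raised the median of all genes by 0.26 for the genotype effect at 20 weeks and by 0.12 at 8 weeks. Of 29 tested at 20 weeks with vehicle, 6 were higher and 8 lower in PLNR9C (23.3% and 21.4% of all genes), with a median of 0.03 beside 0.01 for all genes. Fgf13, an intracellular modulator of sodium channels, went from 56.5 ± 7.87 to 27.98 ± 2.95 CPM (-1.01 ± 0.10, adjusted p = 2.9e-07), and it was also called at 8 weeks (-0.28 ± 0.07, adjusted p = 0.014) and in cardiomyocytes (-0.71 ± 0.16, adjusted p = 0.0058). Ank2, the ankyrin that anchors membrane proteins, went from 283 ± 21.1 to 196 ± 12.1 CPM at 20 weeks (-0.53 ± 0.08, adjusted p = 5.1e-05). Nalcn, the sodium leak channel, went from 0.843 ± 0.155 to 3.38 ± 0.334 CPM (1.996 ± 0.28, adjusted p = 1.2e-05), and Ank3 from 115 ± 8.28 to 146 ± 7.85 CPM (0.35 ± 0.07, adjusted p = 0.00053). At 8 weeks Rrad, an inhibitor of L-type channels, rose from 96.5 ± 10.7 to 156 ± 20.95 CPM (0.70 ± 0.16, adjusted p = 0.019), and with Fgf13 and Ank2 was 1 of 3 partners called of 28, where 14.4% of all genes passed.

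With JQ1, 10 of 29 partners passed in PLNR9C at 20 weeks, 3 higher and 7 lower (31.9% of all genes), and 6 of 29 in wild type, 3 in each direction (27.2%). Gja5, the connexin 40 of atrium and conduction tissue, went from 12.5 ± 1.596 to 4.103 ± 0.295 CPM in PLNR9C (-1.61 ± 0.14, adjusted p = 3.1e-07) and from 8.3 ± 0.429 to 4.68 ± 0.331 CPM in wild type (-0.83 ± 0.14, adjusted p = 0.00033). Gja1, connexin 43, fell from 442 ± 21.8 to 291 ± 23.6 CPM in PLNR9C (-0.60 ± 0.09, adjusted p = 0.00014). Nalcn, high in PLNR9C, fell from 3.38 ± 0.334 to 1.11 ± 0.251 CPM there (-1.60 ± 0.26, adjusted p = 0.00019). In non-myocytes 13 of 28 partners were called in PLNR9C, where 36.2% of all genes passed, and 11 of 28 in wild type, where 38% passed.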

How the data were processed

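The values used were raw read counts per gene and library that the authors deposited, named as reads in the file headers, together with RPKM values that the authors deposited beside them. STAR 2.4.1b, GRCm38 and mm10 stand in the submitters' processing notes, while a counting tool, annotation and strand setting were named nowhere. TRIzol extraction and Nextera library reagents are given per the labels' protocols. RPKM checked as reads per length and library size within 0.0938% and entered no test.

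Within a sample type all 12 libraries entered 1 model (edgeR 4.0.16, R 4.3.3; filterByExpr by group, TMM, robust glmQLFit, glmQLFTest), with Benjamini-Hochberg adjustment over all genes tested (15501 in 8-week ventricle, 15971 in 20-week ventricle, 14142 in myocyte and 15347 in non-myocyte pools) and a threshold of 0.05. Both pools, and both ages, were also fitted together. The standard error is the size of the log2 fold change over the square root of F. Shares within a role are of summed RPKM per library. On simulated counts the 20-week genotype test called 75.3% of 93 genes changed 2-fold and 97.2% of 106 changed 4-fold. For the difference between the ages it called 34.6% of 104 and 89.1% of 92. The simulation gave every gene the same dispersion and changed far fewer genes than were called in the data. These shares therefore do not measure the power of the tests reported here. The difference between the JQ1 effects in the 2 genotypes was not simulated. Alternatives were RLE, DESeq2 1.42.0, other filters, a replicate block and leaving out each library, and, chosen after seeing the data, total-read scaling and the 6 libraries of a comparison alone. Replicate numbers, taken from the titles, were treated as a possible pairing where all same-number correlations of deviations passed 0.1. This held for the genotype effect in non-myocytes (0.249, 0.124 and 0.157). It otherwise held only between the pools (0.197, 0.128 and 0.274), where a block changed no call. At 8 weeks, weaker correlations still exceeded those of unlike numbers for JQ1 in PLNR9C (0.0744, 0.12 and 0.0795) and for genotype under JQ1 (0.0746, 0.0689 and 0.068). Whether any of these libraries were paired cannot be told from the labels, and the main fits use no pairing. No 2 libraries of 1 group agreed within sampling noise.

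The members, roles and gene lists were chosen with earlier results of these data known. Some members and 1 partner gene count in the totals but are not reported here by name. The text gives values per library for those in a fixed list of 18, up to 4 more per comparison with the smallest p and others where a role or a processing choice turned on them, and up to 4 partner genes per comparison. Where nothing says that pools came from separate animals, p-values measure the spread between these libraries only. Sequences are RefSeq promoters on GRCm38.p6.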

Additional observations from a re-analysis of the deposited data

Results flagged for a closer look

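The difference between the genotype effects at 20 and at 8 weeks passed the test for 12 members, and the values of 11 of them follow. It was 2.42 for Scn3b, 1.16 for Cacnb3 and 0.78 for Cacnb1 on the log2 scale. It was -2.12 for Hcn4, -2.08 for Cacna1g, -1.95 for Scn4a, -1.91 for Scn10a, -1.74 for Scn4b, -0.68 for Cacna1s, -0.67 for Cacnb2 and -0.65 for Cacna1c.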

How the results depend on the processing

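Of 192 member calls, 179 held under RLE, DESeq2, both other filters and the replicate block, 141 held when any 1 library was left out, and none of these reversed a direction. With total-read scaling, chosen after seeing the data, 3 directions reversed, among them Cacna2d1 for PLNR9C against wild type under JQ1 at 20 weeks (0.0598) and Cacnb1 between the pools (-0.0838).

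For PLNR9C against wild type under JQ1 at 8 weeks, 5 members were called, 8 with DESeq2 and 10 in the 6 libraries alone with a replicate block. Of all genes 926, 1137 and 1133 passed in these fits. For the JQ1 difference between genotypes at 20 weeks, 0 were called, 2 without a filter, 2 with DESeq2 and 1 with a replicate block, and in non-myocytes 0, and 1 with DESeq2. Of all genes 57, 127, 212 and 92 passed in these 20-week fits, and 0 and 64 in the non-myocyte ones. For JQ1 in wild type cardiomyocytes 1 was called, 0 with RLE, total-read scaling or a replicate block, 2 with DESeq2, and 4 and 5 in the 6 libraries alone without and with a block. Of all genes 513 passed in the main fit, and 497, 395 and 407 with RLE, total-read scaling and a replicate block. DESeq2 called 845 genes, and the 6 libraries alone gave 1183 and 1124. For JQ1 in PLNR9C cardiomyocytes 6 were called and 0 in the 6 libraries alone, with or without a block. Of all genes 1480 passed in the main fit, and 22 and 11 in the 6 libraries alone without and with a block. With a block in the 6 libraries alone, the genotype effect in non-myocytes gave 8 in place of 5 and JQ1 in wild type non-myocytes 5 in place of 8. Of all genes 3056 in place of 2861 and 5138 in place of 5828 passed. The cause of these changes was not tested. Outside the correlations named above, nothing but a shared number links the libraries. Under the block 8 of the 192 calls were lost. For JQ1 in PLNR9C at 8 weeks the 6 libraries alone gave 11 calls without and 14 with a block, where 4865 and 5504 of all genes passed.

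Leaving out 1 library gave 5 to 8, 7 to 10, 8 to 12, 0 to 0 and 5 to 6 calls at 8 weeks for genotype, JQ1 in PLNR9C, JQ1 in wild type, their difference and genotype under JQ1. It gave 17 to 19, 9 to 10, 6 to 9, 0 to 1 and 15 to 17 at 20 weeks, 8 to 11, 2 to 8, 0 to 0, 0 to 0 and 9 to 19 in cardiomyocytes, 5 to 7, 4 to 7, 5 to 8, 0 to 1 and 5 to 9 in non-myocytes, 28 to 28 between the pools and 11 to 13 for the change with age. JQ1 in PLNR9C cardiomyocytes gave 2 without JQ1 replicate 3, and 3 without JQ1 replicate 2 or any 1 vehicle library. The difference between genotypes gave 1 at 20 weeks without PLNR9C vehicle replicate 3 and 1 in non-myocytes without PLNR9C JQ1 replicate 1. In non-myocytes JQ1 in PLNR9C gave 4 without JQ1 replicate 2 or vehicle replicate 3. JQ1 in wild type gave 5 without vehicle replicate 3 or JQ1 replicate 3. Genotype under JQ1 there gave 5 without PLNR9C replicate 2 or wild type replicate 1, and 6 without replicate 3 of either. With 3 libraries a group, and 10 reads as the entry level, changes under 2-fold in low members may not be detectable at this depth.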
